A study of Mus musculus with 2 samples.

Results

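The MHC class II genes described here were H2-Aa, H2-Ab1, H2-Eb1, Cd74 and Ciita, 5 of the 26033 genes in the count tables, chosen by symbol. Salivary glands of mice aged 20 days were digested and nuclei were isolated with no selection of a cell type. The molecules counted were nuclear RNA from cells of the gland together with a large part of RNA free of nuclei, given below. One library had the genotype C56BL/6 Csf2-/-, without the gene for the cytokine GM-CSF, and the other had C56BL/6 Csf2+/-, with 1 copy of it. The null library held 74339 barcodes with 75630815 UMIs (unique molecular identifiers, each a counted RNA molecule) and the heterozygous library 68460 barcodes with 76002888 UMIs. Each genotype had 1 library, so no test between genotypes was possible, no difference below has a replicate check, and every interval is a 95% interval that covers counting error only. Csf2 itself had 0 UMIs in the null library, where the interval reached 3.69 UMIs, and 5 in the heterozygous library.

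MHC class II molecules hold peptides taken from engulfed proteins and show them on the cell surface to CD4+ T cells. H2-Aa and H2-Ab1 encode the alpha and beta chain of the I-A molecule, H2-Eb1 encodes the beta chain of I-E, and Cd74 encodes the invariant chain that fills the groove and guides the molecule to endosomes. Ciita encodes the coactivator that switches these genes on, and it does so through a short promoter stretch with an X box and a Y box that RFX and NF-Y factors occupy. Dendritic cells, B cells and many macrophages carry the molecules at rest, and other cells can acquire them under interferon gamma. C57BL/6 mice do not express the H2-Ea partner of I-E, and H2-Ea had 0 UMIs in the null library and 0 in the heterozygous library.

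The promoters of H2-Aa and H2-Eb1 have letters in common, and those of H2-Oa and H2-Ob hold them too. RefSeq promoter windows (build GRCm38.p6, 250 bases before to 50 after the start) were matched by symbol for H2-Aa and H2-Eb1, and also for H2-Oa and H2-Ob, which encode the chains of a modulator of peptide loading. The members H2-Ab1, Cd74 and Ciita are given by name only. The 4 stretches below are shown because Ciita acts through this part of a promoter. Capitals mark GCAAC, part of the X box sequence, and ATTGG, the core of the Y box, which is CCAAT on the opposite strand.
H2-Aa: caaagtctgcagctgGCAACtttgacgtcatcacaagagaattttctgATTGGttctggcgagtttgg
H2-Eb1: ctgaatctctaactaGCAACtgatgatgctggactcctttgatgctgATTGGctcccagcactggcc
H2-Oa: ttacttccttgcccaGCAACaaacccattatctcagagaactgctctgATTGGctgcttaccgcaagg
H2-Ob: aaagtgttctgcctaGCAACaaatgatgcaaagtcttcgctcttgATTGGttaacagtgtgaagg
The H2-Aa stretch lies at chr17:34287852-34287919 on the minus strand and the H2-Eb1 stretch at chr17:34305761-34305827 on the plus strand. The H2-Oa stretch is chr17:34092288-34092355 and the H2-Ob stretch chr17:34238803-34238867, both on the plus strand. Between the 2 motifs lie 28 bases in H2-Aa, 27 in H2-Eb1, 28 in H2-Oa and 25 in H2-Ob. Both strands of 32851 RefSeq promoters were searched for GCAAC followed, after 20 to 35 bases, by ATTGG. The pair was in 261 of them (0.795%), GCAAC alone in 35.2% and ATTGG alone in 37.4%. The windows of H2-DMa, H2-DMb1 and H2-DMb2 did not hold the pair, and that of H2-Eb2, another beta chain, did. These letters and the spacing were chosen after the H2-Aa and H2-Eb1 windows had been read, and a match is a description of letters, not a bound site.

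Barcodes that passed the filters were clustered without any MHC class II gene, and clusters were named from markers. Of 17 clusters, 4 carried the profile of free RNA, that is, droplets whose secretory gene share was near that of the smallest barcodes. They held 41273 null and 59301 heterozygous barcodes (74.3% and 87.3% of those kept). Those barcodes had 34005748 of the 64722060 kept UMIs in the null library and 49111311 of 75679932 in the heterozygous library. The remaining 14244 null nuclei had a median of 1951 UMIs, against 2807 UMIs in the 8639 heterozygous nuclei. The macrophage-like cluster, with all 16 of 16 macrophage markers above the other nuclei, had 483 null and 372 heterozygous nuclei. The endothelial-like cluster, with 11 of 12 markers, had 154 and 135, and 9 epithelial clusters together had 11793 and 6875. Of all barcode strings, 1367 occurred in both libraries, among them 12 null and 4 heterozygous macrophage-like nuclei.

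Most class II RNA of the gland lay outside named nuclei. H2-Aa, H2-Ab1, H2-Eb1 and Cd74, the chain genes, gave 6047 UMIs together, and 67.8% of them were in free-RNA barcodes. Macrophage-like nuclei held 7.79%, epithelial nuclei 12.9%, endothelial-like nuclei 0.281% and other nuclei 2.96%, and barcodes that failed the filters held 8.20%. Over all genes, free-RNA barcodes held 34005748 of 75630815 UMIs in the null and 49111311 of 76002888 in the heterozygous library. A large part of all RNA thus lay there too. Ciita, whose product acts in the nucleus, was spread differently. Of its 442 UMIs, 30.3% were in free-RNA barcodes, 22.6% in macrophage-like nuclei and 37.8% in epithelial nuclei. The split by library is plotted for each gene.

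**Figure D1:**
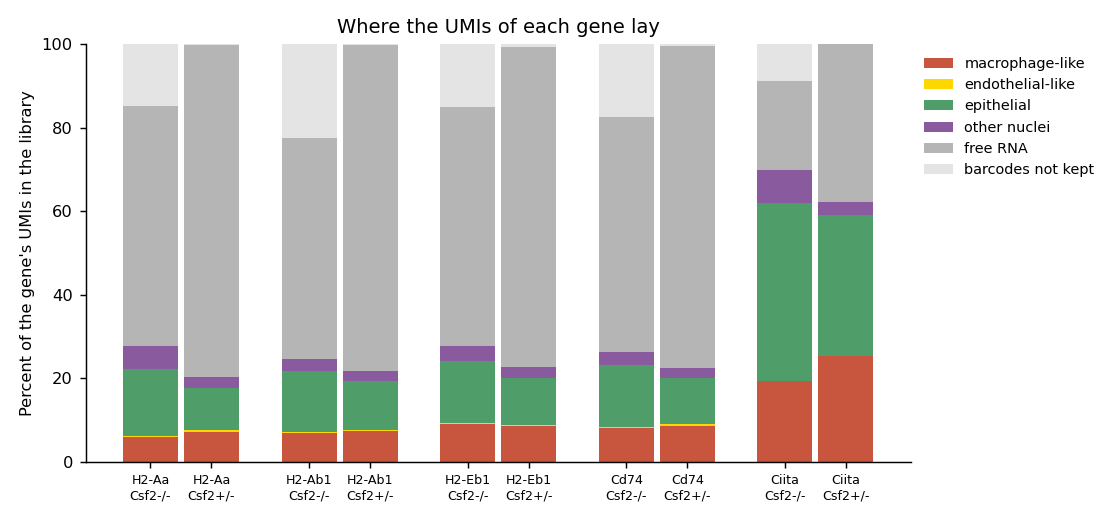
Each bar is 1 gene in 1 library (Csf2-/- left, Csf2+/- right) and shows the percent of its UMIs in each kind of barcode. The chain genes lay mostly in free-RNA barcodes (grey), which held 56.2% of their summed UMIs in the null and 77.7% in the heterozygous library. Ciita had a larger coloured share of nuclei. Over all genes, free-RNA barcodes held 34005748 of 75630815 UMIs in the null and 49111311 of 76002888 in the heterozygous library. Their larger share in the heterozygous library was thus not particular to the chain genes.

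Levels are given as CPM, the UMIs of a gene scaled to the UMI total of the class. The chain genes stood highest in macrophage-like nuclei. Their sum there was 226 CPM in the null library (208 UMIs, interval 196 to 259) and 286 CPM in the heterozygous library (263 UMIs, 253 to 323). Free-RNA barcodes came next, with 45.9 CPM in the null and 51.8 CPM in the heterozygous library. All nuclei outside the macrophage-like cluster had 17.7 CPM (16.2 to 19.2) in the null and 17.6 CPM (16.0 to 19.3) in the heterozygous library. The secretory genes put the free RNA in those nuclei at 0.419 and 0.401 times its concentration in free-RNA barcodes, and that alone would give 19.2 CPM in the null and 20.7 CPM in the heterozygous library. The chain genes outside macrophage-like nuclei were thus at or below this estimate, in both libraries. Epithelial nuclei may transcribe the secretory genes themselves, which would make the estimate too high for them, and this was not tested. The secretory share of UMIs was 18.6% in cluster 0, the largest epithelial cluster, 17.3% in macrophage-like and 18.0% in endothelial-like nuclei. Chain gene expression that stayed under the estimate could not be seen.

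Endothelial and epithelial nuclei can be read against that estimate. Endothelial-like nuclei had 7 chain gene UMIs in the null library (22.6 CPM, interval 9.07 to 46.5) and 10 in the heterozygous library (27.8 CPM, 13.4 to 51.2), where free RNA would give 19.2 CPM and 24.8 CPM. Class II expression by endothelial nuclei above free RNA was not detectable at this depth. Epithelial nuclei had 420 UMIs in the null library (17.1 CPM, 15.5 to 18.8) and 362 in the heterozygous library (17.3 CPM, 15.6 to 19.2), where free RNA would give 19.6 CPM and 20.9 CPM. Among the epithelial classes, mucous acinar-like nuclei had 12.4 CPM in the null and 9.10 CPM in the heterozygous library, and luminal duct-like nuclei 13.6 CPM and 19.6 CPM. Fibroblast-like nuclei had 19.3 CPM and 18.2 CPM. Mucous acinar-like nuclei had the lowest of these values in both libraries. Within each library these classes overlap in their counting intervals, and an order among them was not tested.

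**Figure D2:**
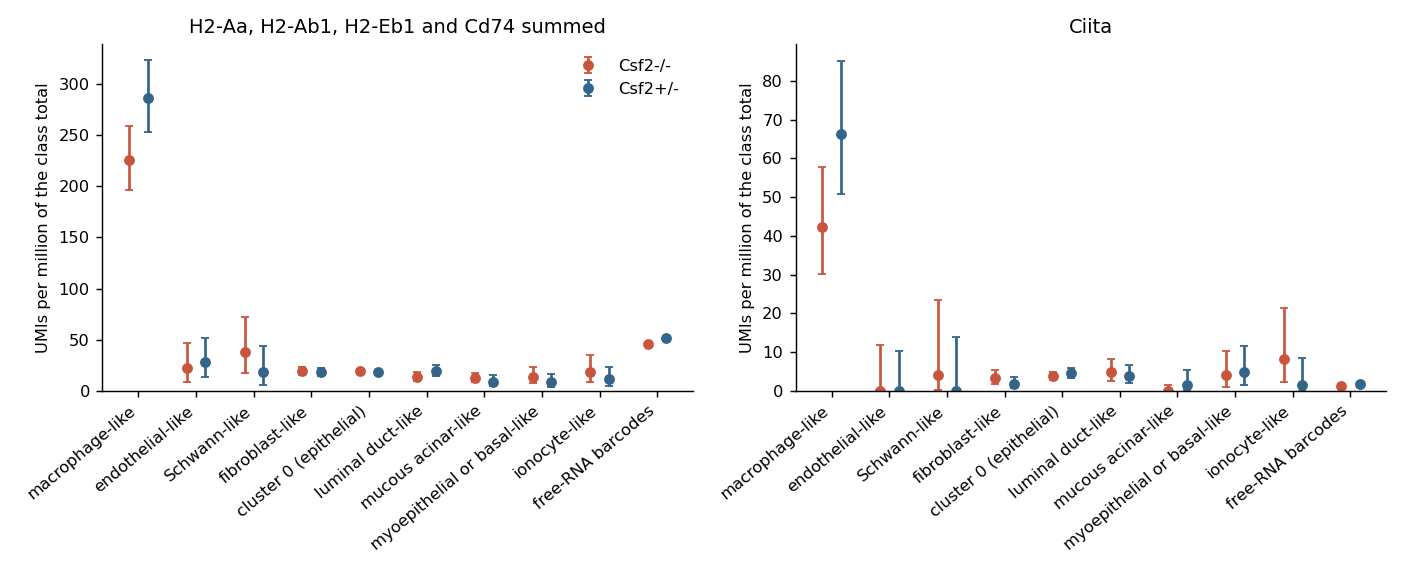
Points are UMIs scaled to the class total (CPM) with exact Poisson intervals, for the summed chain genes (left panel) and Ciita (right panel), with Csf2-/- to the left of Csf2+/- in each class. Macrophage-like nuclei stand apart in both panels, at 226 and 286 CPM for the chain genes and at 42.4 and 66.4 CPM for Ciita.

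Shares of nuclei with a chain gene UMI were also highest in the macrophage-like cluster at equal depth. With each barcode thinned to 500 UMIs, 8.70% of null (interval 6.34 to 11.6) and 11.0% of heterozygous (8.03 to 14.7) macrophage-like nuclei had a chain gene UMI, and before thinning 23.6% and 25.8% had one, at median depths of 1604 and 2112 UMIs. Thinned shares were 0.797% of null and 0.946% of heterozygous epithelial nuclei (3.40% and 4.89% before, at 1935 and 2815 UMIs). They were 1.95% (0.404 to 5.59) of null and 2.22% (0.461 to 6.36) of heterozygous endothelial-like nuclei, 3 nuclei in each library. Free-RNA barcodes had 2.22% in the null and 2.51% in the heterozygous library, so the epithelial shares were below that of free RNA, while the endothelial shares rested on too few nuclei to be placed against it.

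Ciita followed another rule outside macrophages. It had 42.4 CPM in null (39 UMIs, interval 30.1 to 57.9) and 66.4 CPM in heterozygous (61 UMIs, 50.8 to 85.3) macrophage-like nuclei, and 0 UMIs in null and 0 in heterozygous endothelial-like nuclei, where the intervals reached 11.9 and 10.3 CPM. Epithelial nuclei had 3.50 CPM in the null (86 UMIs, 2.80 to 4.32) and 3.88 CPM in the heterozygous library (81 UMIs, 3.08 to 4.82), although free RNA would give 0.540 CPM and 0.749 CPM. Ciita was thus above the free-RNA estimate in epithelial nuclei while the chain genes it controls were not. Dexi, a gene on the opposite strand, overlaps Ciita in the GRCm38 annotation, and the sources used here do not give whether counting used strand. Reads of one gene may therefore be counted for the other, and the UMIs of both are given side by side.

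For every 100 Dexi UMIs, epithelial nuclei had 2.55 Ciita UMIs in the null and 3.15 in the heterozygous library. Fibroblast-like nuclei had 3.09 and 2.15, and free-RNA barcodes 2.14 and 3.34. Small epithelial clusters varied more on few UMIs, up to 7.14 in null ionocyte-like nuclei (4 beside 56 UMIs) and 9.09 in the null nuclei of cluster 14 (3 beside 33 UMIs). Mucous acinar-like nuclei were lower, with 0 Ciita beside 274 Dexi UMIs in the null and 2 beside 145 in the heterozygous library. Macrophage-like nuclei had 47.6 in the null (39 beside 82 UMIs) and 109 in the heterozygous library (61 beside 56 UMIs), where Dexi itself was higher in the null library (log2 ratio 0.55, 0.04 to 1.06), which widens that gap. Outside macrophage-like nuclei Ciita therefore stood near a small and similar fraction of Dexi in epithelial nuclei, fibroblast-like nuclei and free RNA. Whether those UMIs came from the Ciita strand was not tested.

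**Figure D3:**
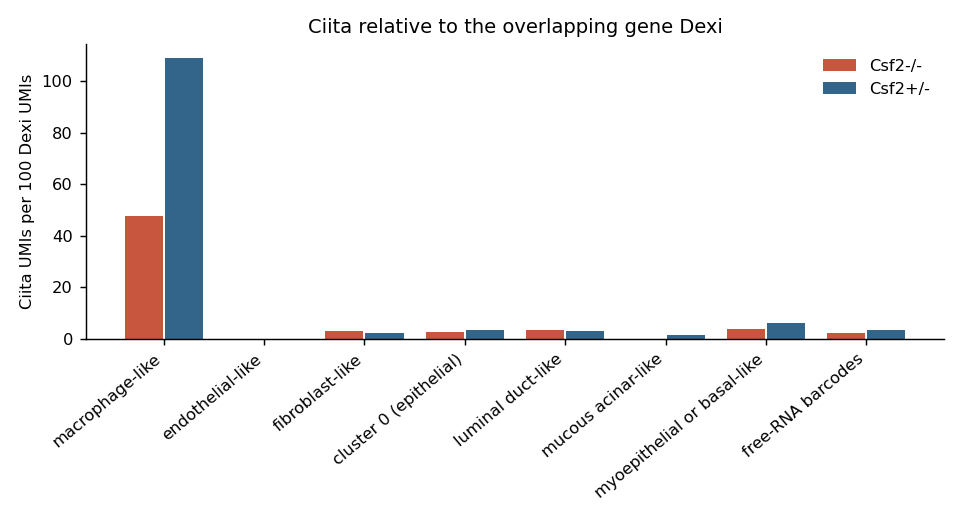
Bars are Ciita UMIs per 100 Dexi UMIs by class, with Csf2-/- left of Csf2+/-. Macrophage-like nuclei reach 47.6 and 109, and the plotted epithelial, fibroblast-like and free-RNA bars lie between 0 and 6.02.

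Over the macrophage-like nuclei as a whole, each member was lower in the null library, but few by more than counting error. H2-Aa had 36 UMIs (39.1 CPM) in the null library, against 55 (59.9 CPM) in the heterozygous library. The log2 ratio of null over heterozygous was -0.62 (-1.26 to 0.02). H2-Ab1 had 34 UMIs (36.9 CPM), against 42 (45.7 CPM), a ratio of -0.31 (-1.01 to 0.38). For these I-A chains the interval held 0.

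H2-Eb1 had 44 UMIs (47.8 CPM) in null nuclei, against 57 (62.0 CPM) in heterozygous nuclei, a log2 ratio of -0.38 (-0.98 to 0.22). Cd74 had 94 UMIs (102 CPM), against 109 (119 CPM), a ratio of -0.22 (-0.63 to 0.19). Ciita had 39 UMIs, against 61, a ratio of -0.65 (-1.27 to -0.05), and was the member whose own interval lay below 0. A Ciita UMI was found in 7.04% of null and 11.6% of heterozygous nuclei, and after thinning to 500 UMIs in 3.11% (1.75 to 5.07) and 2.96% (1.49 to 5.23). An H2-Aa UMI was found in 5.80% and 9.68%, and after thinning in 2.90% (1.59 to 4.82) and 2.96% (1.49 to 5.23). The thinned shares overlap in their intervals for both genes, so the lower shares before thinning were not seen at equal depth. The summed chain genes had a log2 ratio of -0.34 (-0.61 to -0.07). Past 1.5-fold lower lay 2 of the 5 members, H2-Aa and Ciita, where 10.5% of the 9322 genes with at least 20 UMIs were that much lower and 9.38% that much higher. The median log2 ratio of those genes was -0.07.

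Other measures moved with this difference. Acinar markers, which stand for free RNA here, summed to 123456 CPM in null macrophage-like nuclei and 94799 CPM in heterozygous ones. The 16 macrophage markers summed to 4962 CPM and 5928 CPM, and none of them was at 0 in either library. B cell markers summed to 356 CPM, with 5 of 10 at 0, in the null library and to 566 CPM, with 2 at 0, in the heterozygous library. Dendritic markers summed to 415 CPM and 442 CPM, and none of the 12 was at 0. The part of these measures in the result was not tested. Free-RNA barcodes also had less of the chain genes in the null library, with a log2 ratio of -0.17 (-0.27 to -0.08), beside a median of -0.30 over all genes there. Nuclei outside the macrophage-like cluster had a ratio of 0.00 (-0.18 to 0.19).

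The difference over the whole cluster depended on which nuclei were counted. Clustered again without class II genes, the macrophage-like nuclei fell into 11 subclusters, several of which carried markers of other cells. Without those with dendritic, NK or ILC1, ILC2 or B cell markers, 357 null and 287 heterozygous nuclei remained, and the log2 ratio of the summed chain genes was -0.046 (-0.35 to 0.26). The subcluster with B cell markers was led by cell division genes and had 14 of 16 macrophage markers above the other nuclei. With it kept in, a choice made after the data had been examined, the ratio was -0.12 (-0.41 to 0.18), and with the subclusters of acinar or fibroblast markers left out as well it was -0.24 (-0.58 to 0.09). The overall difference was thus not separable from counting error in the remaining macrophage-like nuclei. Its interval also held 0 with a minimum of 1000 UMIs (-0.25, -0.52 to 0.02), under 1% mitochondrial UMIs (-0.25, -0.53 to 0.03), at Leiden resolution 2.0 (-0.18, -0.45 to 0.10) and without the 100 most abundant acinar genes in the total (-0.24, -0.51 to 0.02), and so did that of Ciita under these 5 settings.

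The subcluster with dendritic markers was the richest. It was led by Aldh1a2 and by Clec9a, a receptor of cross-presenting dendritic cells, and had 8 of 12 dendritic markers. It also had 4 of 8 mast cell and 2 of 10 B cell markers, so it may hold more than 1 kind of nucleus. Dendritic markers summed to 2311 CPM in the null and 1527 CPM in the heterozygous nuclei of this subcluster. B cell markers summed there to 50.2 CPM in the null and 1573 CPM in the heterozygous library. Its 11 null nuclei had 23 chain gene UMIs (1155 CPM, interval 732 to 1733) and its 25 heterozygous nuclei 55 (1254 CPM, 945 to 1632). Ciita had 5 UMIs in the null and 13 in the heterozygous library. The log2 ratio of the chain genes within it was -0.12 (-0.89 to 0.61), while it made up 11 of 483 and 25 of 372 nuclei of the cluster.

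Subclusters 3 and 4, both with Cx3cr1, the fractalkine receptor of many tissue macrophages, came next. Subcluster 3, led by Kcnip4, had 44 chain gene UMIs in 57 null nuclei (526 CPM) and 56 in 39 heterozygous nuclei (700 CPM), a log2 ratio of -0.41 (-1.02 to 0.18). Its Ciita ran the other way, with 14 UMIs in the null and 9 in the heterozygous library, a ratio of 0.57 (-0.74 to 1.96). Subcluster 4, led by Lhfpl2 and Fat3, had 50 UMIs in 61 null nuclei (439 CPM) and 86 in 48 heterozygous nuclei (810 CPM), a ratio of -0.88 (-1.42 to -0.36). It had Cd163 and Lyve1 at 0 and F13a1 and Mrc1 at 31.8 and 59.1 CPM over both libraries.

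In subcluster 4 each member was lower in the null library. H2-Aa had 6 UMIs in the null and 14 in the heterozygous library, H2-Ab1 10 and 12, and H2-Eb1 13 and 22. Cd74 had 21 and 38 UMIs, a log2 ratio of -0.96 (-1.80 to -0.15). Ciita had 6 and 22 UMIs (52.7 and 207 CPM), a ratio of -1.98 (-3.57 to -0.63), while the overlapping Dexi had 7 and 6. Past 1.5-fold lower lay 4 of the 5 members, H2-Ab1 being the exception, where 19.7% of the 2380 genes with at least 20 UMIs in that subcluster were that much lower and 12.2% higher. Acinar markers summed there to 124317 CPM in the null and 91624 CPM in the heterozygous library. The summed ratio stayed between -1.10 and -0.48 under 6 alternatives chosen after the data had been examined. Its interval held 0 for nuclei defined instead by a Cx3cr1 UMI without Cd163 or Lyve1 (-0.48, -1.04 to 0.08), as did that of Ciita (-0.81, -2.33 to 0.64), which also held 0 at subcluster resolution 0.5 (-0.83, -1.72 to 0.02). Among those 6 alternatives, removal of Scrublet doublets left all 61 null and 48 heterozygous nuclei, so it repeats the main values by construction. The subcluster was singled out after its values had been seen.

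Macrophage nuclei rich in Cd163 and F13a1 had fewer class II UMIs than subclusters 3 and 4. Subcluster 0, with 514 CPM of Cd163 and 2510 CPM of F13a1 over both libraries, had 20 chain gene UMIs in 78 null nuclei (191 CPM) and 11 in 48 heterozygous nuclei (149 CPM), a log2 ratio of 0.36 (-0.77 to 1.57). Subcluster 2, with Cd163, the haemoglobin scavenger receptor, and Lyve1, had 16 chain gene UMIs in 65 null nuclei (118 CPM) and 16 in 95 heterozygous nuclei (63.2 CPM), a log2 ratio of 0.90 (-0.20 to 1.99). Its Ciita had 1 UMI in the null and 3 in the heterozygous library. Subclusters with NK or ILC1 markers had 49.5 and 14.9 CPM of chain genes from 5 and 1 UMIs, and those with ILC2 markers 0 UMIs in each library. Split by single markers after the data had been examined, nuclei with a Cx3cr1 UMI and no Cd163 or Lyve1 UMI had 403 CPM in the null and 562 CPM in the heterozygous library. The 106 null nuclei with a Cd163 or Lyve1 UMI and no Cx3cr1 UMI had 32 chain gene UMIs (155 CPM, 106 to 219). The 93 such heterozygous nuclei had 10 (35.6 CPM, 17.1 to 65.4). The chain genes were thus higher in the null library there, opposite to the whole cluster, and the intervals did not meet. Ciita had 3 UMIs in the null and 5 in the heterozygous nuclei of this kind.

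**Figure D4:**
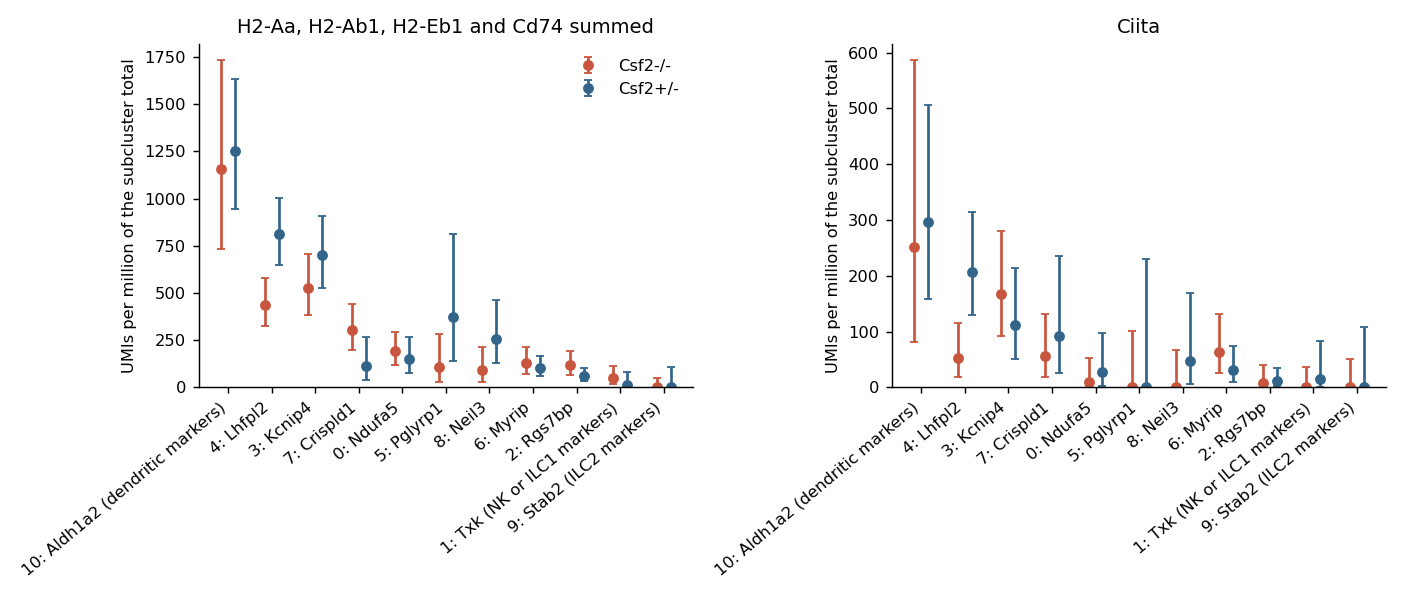
Points are UMIs scaled to the subcluster total (CPM) with exact Poisson intervals, for the summed chain genes (left) and Ciita (right), with Csf2-/- left of Csf2+/- and each subcluster labelled by its number and leading gene. The subcluster with dendritic markers is highest, and in subcluster 4 the null points (439 and 52.7 CPM) lie below the heterozygous ones (810 and 207 CPM).

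Class II UMIs were concentrated in few nuclei. At least 3 chain gene UMIs were found in 21 of 483 null (4.35%, interval 2.71 to 6.57) and 37 of 372 heterozygous (9.95%, 7.10 to 13.5) macrophage-like nuclei. These counts were not thinned, and the median depth was 1604 UMIs in the null and 2112 in the heterozygous nuclei. In subcluster 3 such nuclei were 4 of 57 and 10 of 39, and in subcluster 4 they were 5 of 61 and 12 of 48. Among macrophage-like nuclei the highest value was 6 UMIs in a null and 14 in a heterozygous nucleus, which lay in the subcluster with dendritic markers. Epithelial nuclei had 1 of 11793 null and 1 of 6875 heterozygous, and endothelial-like nuclei 0 of 154 and 0 of 135, which allows shares of up to 1.95% and 2.22% by the limit of 3 counts (exact binomial upper bounds 2.37% and 2.70%). Fibroblast-like nuclei had 3 of 1696 null, 1 of them with 8 UMIs, and 2 of 1157 heterozygous, and Schwann-like nuclei 1 of 118 and 1 of 100.

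**Figure D5:**
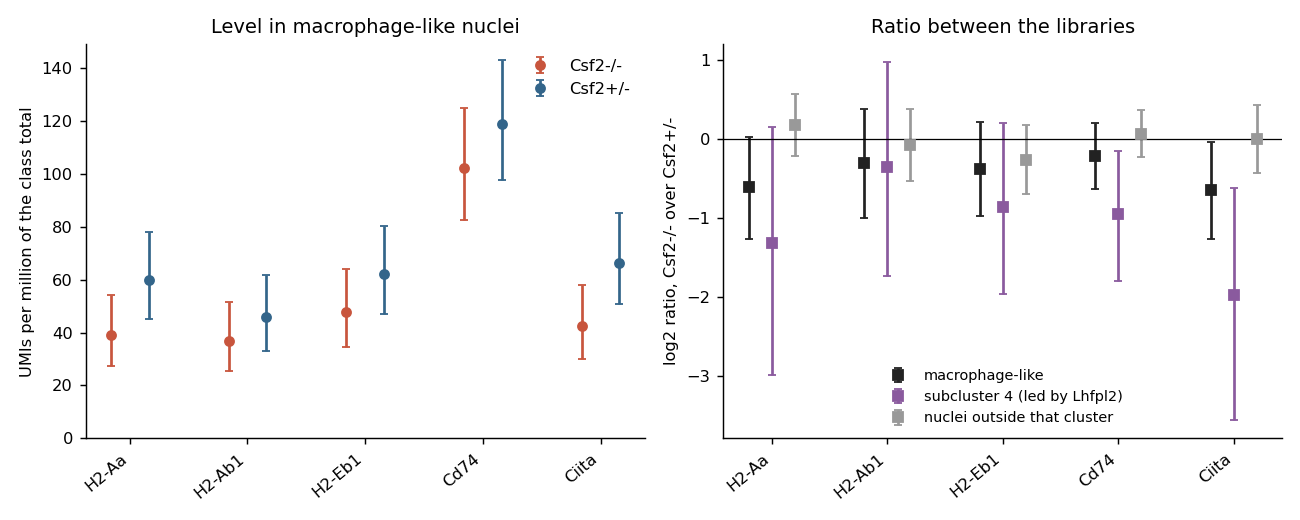
The left panel shows the level of each member in macrophage-like nuclei (CPM, exact Poisson intervals, Csf2-/- left of Csf2+/-), and the right panel the log2 ratio of Csf2-/- over Csf2+/- with its counting interval in macrophage-like nuclei, in subcluster 4 and in all nuclei outside that cluster. All 5 members lie below 0 in the first 2 sets, with ratios from -0.65 to -0.22 and from -1.98 to -0.36, and the intervals outside the cluster hold 0.

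The peptide-loading genes did not move as one in macrophage-like nuclei. Of 11 listed, 8 had at least 20 UMIs, 1 was over 1.5-fold higher and 1 over 1.5-fold lower in the null library, and the median log2 ratio was -0.07. That is near the shares over all genes measured, 9.38% higher and 10.5% lower. H2-DMb1, the beta chain of the DM exchanger that swaps the invariant chain fragment for peptide, was the higher one, with 42 UMIs in the null and 19 in the heterozygous library (1.14, 0.33 to 2.01). Its near-copy H2-DMb2 can share reads with it. H2-DMa, the partner chain, had 14 and 23 UMIs (-0.72, -1.79 to 0.30). Ctss, the protease that trims the invariant chain, had 118 and 115 UMIs (0.03, -0.35 to 0.42), and Lgmn, an endosomal protease, 119 and 173 (-0.54, -0.89 to -0.20).

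H2-DMa differed from the chain genes outside macrophages. In epithelial nuclei it had 13.1 CPM in the null (321 UMIs) and 10.6 CPM in the heterozygous library (221 UMIs), above the 5.60 and 4.34 CPM that free RNA would give. In mucous acinar-like nuclei it had 17.7 and 21.2 CPM, beside 4.30 and 3.08 CPM. Its level in macrophage-like nuclei was 15.2 CPM in the null and 25.0 CPM in the heterozygous library.

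Regulators were mostly lower in the null macrophage-like nuclei, and few passed 1.5-fold. Of the 7 class II transcription genes, 4 were measured and 0 passed in either direction, with a median log2 ratio of -0.20. In the interferon gamma route 8 of 10 were measured, 0 were higher and 2 lower, with a median of -0.38, beside 10.5% lower and 9.38% higher over all genes measured. Ifngr1, a receptor chain for interferon gamma, had 59 UMIs in the null and 95 in the heterozygous library (-0.69, -1.19 to -0.21), and Jak2, the kinase at that receptor and at the GM-CSF receptor, 66 and 105 (-0.67, -1.14 to -0.22). Irf1, a transcription factor of that route, had 47 and 38 (0.30, -0.34 to 0.96). Marchf1, the ubiquitin ligase that removes class II from the surface, had 194 and 280 (-0.53, -0.80 to -0.26).

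Class I genes gave a near comparison. All 11 listed were measured, 0 were over 1.5-fold higher and 4 over 1.5-fold lower in null macrophage-like nuclei, with a median log2 ratio of -0.33, beside 10.5% lower and 9.38% higher and a median of -0.07 over all genes measured. H2-K1, a class I heavy chain, had 193 and 315 UMIs (-0.71, -0.98 to -0.45), and Tapbp, which holds class I for peptide loading, 23 and 45 (-0.97, -1.76 to -0.22). Nlrc5, the class I counterpart of Ciita, had 97 and 130 (-0.43, -0.82 to -0.04). B2m, the light chain, had 134 and 165 (-0.30, -0.64 to 0.03). Of 6 costimulation genes 3 were measured and 0 passed in either direction, among them Cd86, a ligand of CD28, with 216 and 249 UMIs (-0.21, -0.48 to 0.06).

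The genes most like the chain genes across nuclei were leukocyte genes. Over 26 points (13 clusters in 2 libraries), the highest Pearson r of log2(CPM + 10) with the summed chain genes was 0.95 for Fcrls, then 0.94 for Lck, Dock2, Fyb, Pde1b, Lair1, Nckap1l, Wdfy4 and Ncf1, among 14520 genes. Ciita had 0.81. Over 22 points (11 subclusters in 2 libraries) the highest were Wdfy4 (0.84), Cadm1 (0.83), Pip4k2a (0.82), Bach1 (0.81), Skap2, Ctss, Plbd1, Fmnl2, Camk1d and Btk, the last at 0.79, among 6108 genes, and Ciita had 0.75. Wdfy4, in both lists, is needed for cross-presentation by dendritic cells. Over the clusters, the chain genes stood apart in the macrophage-like points alone (226 CPM in the null and 286 CPM in the heterozygous library). Genes confined to that cluster, which was named from macrophage markers, therefore reach a high r there. The points share libraries and many rest on few UMIs, so the values only describe these data.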

How the data were processed

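The authors deposited UMI counts, unnormalised, for each barcode; Cell Ranger 7.0.0 made the tables (per the file headers), with GRCm39 as the build named in the submitters' processing notes; use of strand or introns is not given in the sources used here. Members and gene lists were chosen with earlier results of these data known. Barcodes were kept with at least 500 UMIs, 300 genes and under 5% mitochondrial UMIs. Scrublet marked 0 of 55517 null and 0 of 67940 heterozygous barcodes and was taken as not having worked. Run on nuclei alone it marked 23 of 14244 null and 338 of 8639 heterozygous nuclei, so it did not work on the null nuclei either. Libraries were clustered together in Scanpy 1.11.5 (2000 variable genes without 12 MHC class II genes, 30 components, 20 neighbours, Leiden resolution 1.0). A cluster was called free RNA when the share of 8 secretory genes was at least 0.75 times that of barcodes under 1000 UMIs, and was named with at least 3 markers 2-fold up. That rule and the subclustering were set after the clusters had been seen. Sums of UMIs over a class in a library were converted to CPM and given with exact Poisson, binomial or conditional binomial 95% intervals (SciPy 1.17.1). Ratios of single genes need at least 20 UMIs. The genes named are the members, the lists with at least 20 UMIs, and the 10 most like, which had at least 50 UMIs; some of these are not reported here. The ratio step was tested on simulated data. Alternatives were filters, resolution, class rule, free-RNA subtraction, scaling, doublets and subclusters left out.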

Additional observations from a re-analysis of the deposited data

Results flagged for a closer look

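The summed chain genes ran in opposite directions in a pair of subclusters of the macrophage-like cluster, each with a counting interval on its own side of 0. In subcluster 7, which carried fibroblast, duct and pericyte markers, 24 null nuclei had 27 UMIs (304 CPM) and 10 heterozygous nuclei had 5 (115 CPM), a log2 ratio of 1.41 (0.01 to 3.14). In subcluster 4 the ratio was -0.88 (-1.42 to -0.36). The difference between the subclusters was not tested, and many subclusters were looked at.

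Class II UMIs also lay in barcodes outside all comparisons. Barcodes that failed the filters held 482 chain gene UMIs in the null library (17.4% of its total) and 14 in the heterozygous library (0.428%). Over all genes, kept barcodes held 64722060 of 75630815 UMIs in the null library and 75679932 of 76002888 in the heterozygous library. Failed barcodes thus also held more of all RNA in the null library, and this gap is not particular to class II genes.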

How the results depend on the processing

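No paired analysis was possible because each genotype had 1 library. The summed chain gene ratio in macrophage-like nuclei was below 0 under 11 of the 12 settings tried, of which 2 were chosen after seeing the data, and it was -0.046 without the subclusters with dendritic or lymphoid markers. The lowest ratio, -0.48 (-0.75 to -0.21), came with Scrublet doublets removed. That step took out 33 of 372 heterozygous and 0 of 483 null macrophage-like nuclei, so it was one-sided. When class was set by markers per nucleus, 15 null and 22 heterozygous nuclei qualified and the ratio was 1.71 (-0.02 to 3.64). In them the chain genes had 64.4 CPM in the heterozygous library, Ciita 0 CPM in the null and 25.8 CPM in the heterozygous library, and 13.3% of null and 4.55% of heterozygous nuclei had at least 3 chain UMIs. The nuclei outside then had 23.6 CPM in the null and 26.8 CPM in the heterozygous library. Summed chain levels in macrophage-like nuclei were 272 CPM in the null and 323 CPM in the heterozygous library with a minimum of 1000 UMIs. In the null library they were 262.5 CPM under 1% mitochondrial UMIs, 279 CPM at Leiden resolution 2.0 and 260 CPM without those subclusters. Subtracting free RNA gave 363 CPM in the null and 455 CPM in the heterozygous library, Ciita at 73.7 and 113 CPM, and chain genes at 0 and 0 CPM outside. Outside, the estimated free RNA exceeded the counts and negative results were set to 0, so these values do not measure absence. Without the 100 most abundant acinar genes in the total, the chain genes had 313 CPM in the null and 371 CPM in the heterozygous library, Ciita 58.7 and 86.0 CPM, and nuclei outside 26.0 and 24.4 CPM. Apart from the values set to 0, the last 2 sets are larger by construction, since the total is smaller, and the cause of the others was not tested. At 34 to 109 UMIs per member and library in these nuclei, ratios under about 1.5-fold could not be told from counting error.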
